A study of Mus musculus with 8 samples.

Results

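Axon guidance ligands and receptors are the secreted and membrane proteins that steer growing axons, and the 67 genes described here are those of the semaphorin, ephrin, Slit and netrin systems that were measured in sorted cells of the neonatal mouse cochlea. The genes were taken by symbol from the protein-coding genes of the NCBIM37 (mm9) annotation. They cover the semaphorins of classes 3 to 7 with the neuropilins and plexins, the ephrins with the Eph receptors, the Slits with the Robo receptors, and the netrins with *Dcc* and the Unc5 receptors. Of 69 genes with such a symbol, 67 had at least 1 CPM (its count relative to all gene counts of the library) in at least 2 of the 8 libraries, among 14610 protein-coding genes that did so and 36536 genes with counts in all. *Slit1* lay just inside this limit, with 2.16 and 5.99 CPM of the gene total in the P1 GFP- libraries and less than the limit in the other 6 libraries. *Epha6* and *Robo3* lay outside it, with at most 0.301 and 0.148 CPM in any library. The 67 genes comprise 35 ligand genes and 32 receptor genes.

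In these systems a ligand that is secreted or held on the surface of one cell binds a receptor on an axon or on a neighboring cell and changes the cytoskeleton there, most often so that the growth cone turns away. Class 3 semaphorins are secreted and act through a neuropilin paired with a plexin, whereas the other semaphorins bind plexins directly. Ephrin-A ligands are tethered to the membrane by a lipid anchor and mostly bind EphA receptors, ephrin-B ligands span the membrane and mostly bind EphB receptors, and both sides can signal. Slits repel through Robo receptors. Netrins attract through *Dcc* and repel through Unc5 receptors. In the cochlea the neurites of spiral ganglion neurons grow among the supporting cells to reach the hair cells, and several of these families are known to shape this innervation. The same genes also act in blood vessels and in mesenchyme, which surround the sensory epithelium.

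RNA-seq was performed on cells from freshly dissected, untreated cochleas of mice carrying an *Lfng-EGFP* BAC transgene on a mixed B6 and FVB background (Tg(Lfng-EGFP)HM340Gsat). The *Lfng* promoter drives GFP in most supporting cell types but hardly in inner pillar cells, and only the brightest cells were collected as GFP+ cells. GFP- cells were sorted from the same dissected tissue and hold several other cochlear cell types together. Cells of low GFP, which the paper takes as likely inner pillar and inner hair cells, were not collected. The cochlear duct had also been separated from the modiolus. The animals were 1 day old (P1) or 6 days old (P6), which gives 4 groups (P1 GFP+, P1 GFP-, P6 GFP+ and P6 GFP-) with 2 replicate libraries each, every library being made from cells pooled over many cochleas. The lateral wall was taken off at P1 and was only partly removed at P6, so age and dissection cannot be told apart in GFP- cells. No label states that the replicates came from separate litters, and the p-values therefore measure only the spread between these libraries.

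The libraries held 17769024 to 67695039 counts on genes. Log2 ratios between the fractions are of GFP+ to GFP- cells and those between the ages of P6 to P1, each with its standard error (SE). Levels are given as normalized CPM, in which the library sizes are scaled by TMM over the 8 libraries, and levels of different genes are compared as RPKM, the normalized CPM per kilobase of exon. Supporting cell markers were high in GFP+ cells, where 11 of 11 were enriched at P1 and 10 of 11 at P6, and markers of mesenchyme and fibrocytes were low there, at a summed level of 534 and 448 normalized CPM in P1 GFP+ cells against 15006 and 13263 in P1 GFP- cells. Hair cell markers, which the gate could also admit, summed to 737 and 832 normalized CPM in P1 GFP+ and 466 and 494 in P1 GFP- cells, sums to which *Myo6* gave the most, and GFP+ cells were enriched for 4 of the 10 at P1 and 5 at P6. The markers differed among themselves. *Otof* had 149 and 184 normalized CPM in P1 GFP+ cells and 16.7 and 15.3 in P1 GFP- cells. *Calb2* had 21.5 and 25.8 against 29.7 and 81.7, and *Pvalb* 14.6 and 17.4 against 14.4 and 40.6. By quantitative PCR the paper found the lowest *Myo6* in the collected fraction among those it compared. The part of hair cell RNA in the results for GFP+ cells was not tested. A pair of libraries stood apart. P6 GFP+ replicate 2 had more RNA of other cell types than replicate 1, with summed levels of 1943 and 3762 normalized CPM (replicate 1 and replicate 2) for 10 mesenchyme markers and 128 and 391 for 10 endothelial markers. P1 GFP- replicate 2 had more neuronal RNA than replicate 1, with 211 and 702 normalized CPM summed over 10 markers of spiral ganglion neurons. In bulk samples, fewer cells of a type and less RNA per cell cannot be told apart.

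**Figure D1:**
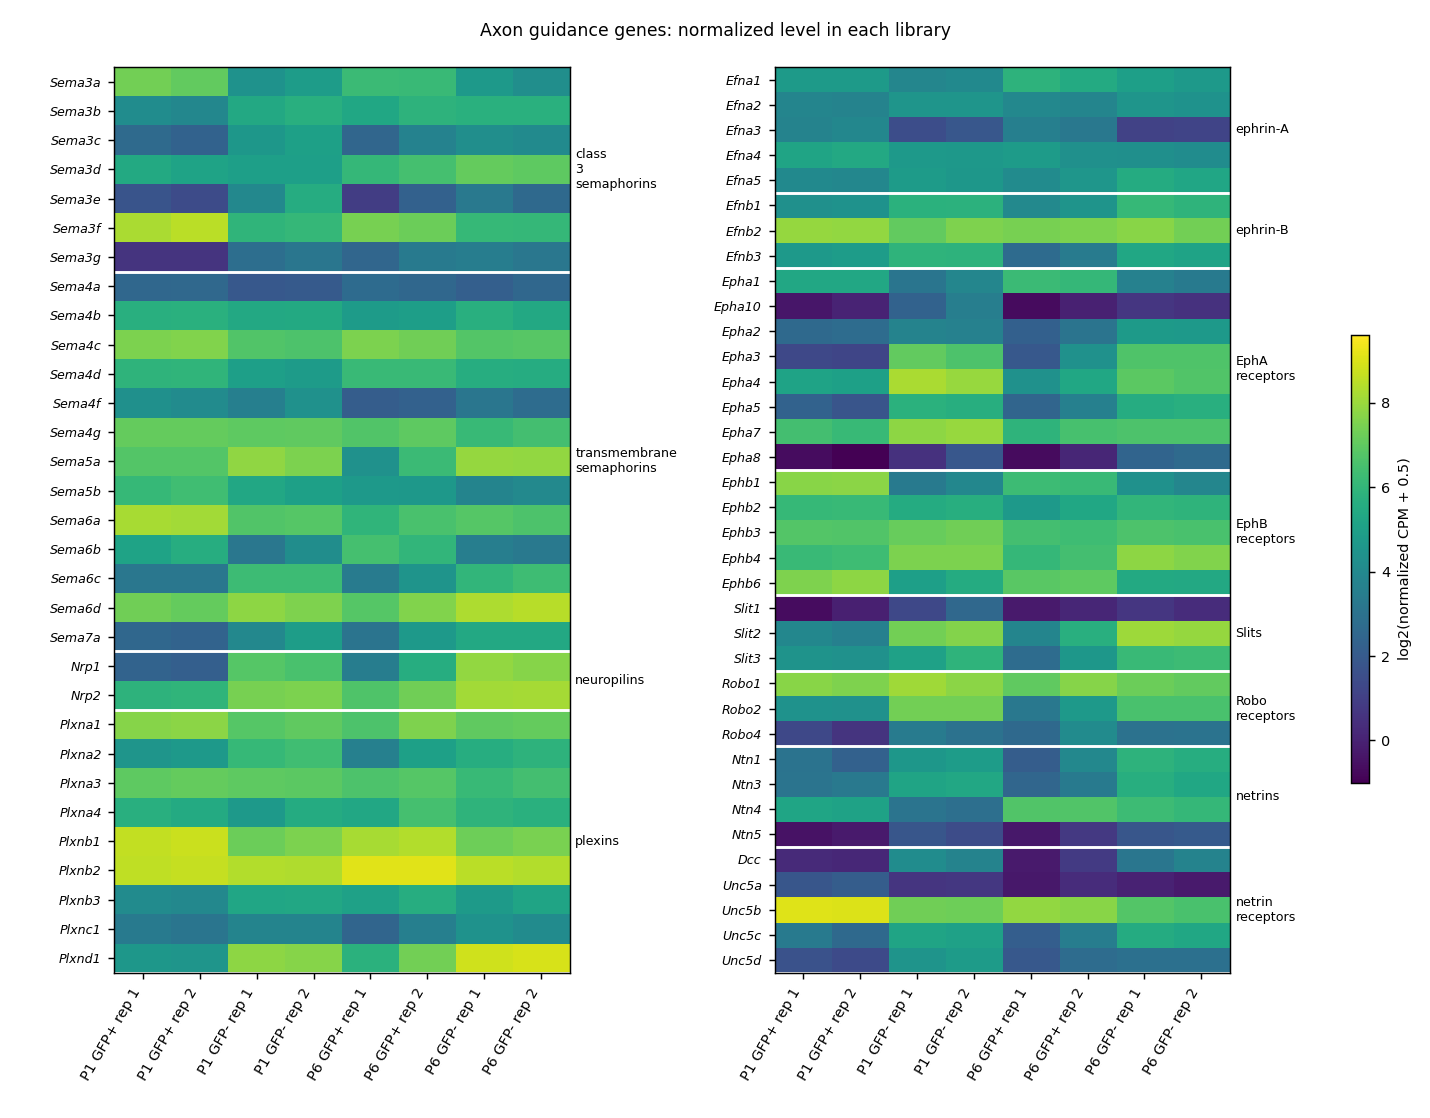
Normalized level of the 67 axon guidance genes in each of the 8 libraries. Each row is a gene, grouped by family, each column a library, and the color is log2(normalized CPM + 0.5). *Sema3f*, *Unc5b* and *Ephb1* are brighter in the GFP+ columns of P1, whereas *Epha3*, *Epha4*, *Slit2*, *Nrp1* and *Plxnd1* are brighter in the GFP- columns, and P6 GFP+ replicate 2 is brighter than replicate 1 for many of the latter.

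Per length of transcript, P1 GFP+ cells expressed *Sema3f* and *Unc5b* above all other genes of these systems, at 95.7 ± 12.1 and 91.0 ± 2.29 RPKM (mean ± SD, n = 2), and these levels do not differ beyond their spread. *Sema3f* is a secreted repellent that acts through neuropilin-2, and *Unc5b* is a repulsive netrin receptor. Below them came *Plxnb2* at 54.0 ± 2.50 RPKM and *Ephb6* at 53.7 ± 6.46 RPKM, again within their spread, and *Efnb2* at 49.6 ± 0.727 RPKM. In P6 GFP+ cells *Plxnb2*, a receptor for class 4 semaphorins, stood first at 76.1 ± 0.328 RPKM, followed by *Sema3f* at 46.0 ± 4.70, while *Unc5b* at 37.8 ± 2.86, *Sema4c* at 37.3 ± 3.78 and *Efnb2* at 37.0 ± 2.10 RPKM were not separated by their spread. The order in GFP- cells was different. In P1 GFP- cells it began with *Plxnb2* at 44.5 ± 0.826 RPKM and *Epha4* at 43.5 ± 5.94 RPKM, which overlap, and *Ephb4* at 39.2 ± 0.528 RPKM, and in P6 GFP- cells with *Plxnd1* at 65.4 ± 3.96 RPKM, ahead of *Plxnb2* at 47.6 ± 3.03 and *Ephb4* at 44.6 ± 5.08 RPKM. Summed over the 67 genes, the level was 841 and 870.4 RPKM in P1 GFP+ cells, 744 and 766 in P1 GFP- cells, then 671 and 765 and 837 and 796 in GFP+ and GFP- cells at P6, a narrower range than that of several single families. EphA receptors, for example, summed to 28.5 and 26.8 RPKM in P1 GFP+ cells and 105 and 96.3 RPKM in P1 GFP- cells, whereas EphB receptors summed to 120.2 and 131 RPKM against 75.2 and 81.8.

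The first comparison, of GFP+ with GFP- cells, asks which of these genes distinguish the supporting cell fraction from the GFP- cells of the dissected tissue. At P1, P1 GFP+ cells were enriched for *Sema3a*, *Sema3f*, *Efna3*, *Ephb1*, *Ephb6* and *Ntn4*, while 22 of the genes were enriched in GFP- cells, among them 5 of 8 EphA receptors, *Nrp1*, *Plxnd1*, *Slit1*, *Slit2*, *Robo2*, *Robo4* and 3 of 5 netrin receptors. A gene is called enriched when it was past the study's criteria in edgeR's quasi-likelihood test, which asks for a fold above 4 together with a raw and an adjusted p below 0.01. The 6 genes enriched in GFP+ cells are 8.96% of the 67, where 6.46% of all 18682 genes tested were enriched in that direction, and the 22 genes enriched in GFP- cells are 32.8%, against 11.4% of all genes tested. Among the 22, *Slit1*, *Epha8* and *Epha10* reached the level limit of 1 CPM in GFP- libraries only. *Dcc* and *Ntn5* reached it in a single GFP+ library, P6 GFP+ replicate 2 (1.24 and 1.17 CPM), so they too needed the GFP- libraries to enter the set. The enrichment of these genes in GFP- cells follows in part from the choice of genes, and so do the counts that include them. At an adjusted p below 0.05 and whatever the fold, 23 genes (34.3%, against 25.5% of all genes) were higher in GFP+ cells and 38 (56.7%, against 28.1%) were higher in GFP- cells. The median log2 ratio of the 67 genes was -0.76, and that of all genes tested was 0.0075. By role, GFP+ cells were enriched for 4 of 35 ligand genes and 2 of 32 receptor genes, and GFP- cells for 10 and 12.

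At P6, *Efna3* and *Ephb1* were again enriched in GFP+ cells, together with *Epha1* and *Sema6b*, and 6 genes were enriched in GFP- cells, namely *Dcc*, *Efnb3*, *Epha2*, *Epha5*, *Epha8* and *Ntn3*. Of these, *Dcc*, *Epha5*, *Epha8* and *Ntn3* were enriched in GFP- cells at both ages. *Dcc* and *Epha8* needed the GFP- libraries to enter the set, so their enrichment and the counts that include them follow in part from the choice of genes. The 4 genes enriched in P6 GFP+ cells are 5.97% of the 67, against 4.88% of 18294 genes tested, and the 6 enriched in P6 GFP- cells are 8.96%, against 3.1%. At adjusted p below 0.05 and whatever the fold, 15 genes (22.4%, against 15.5%) were higher in GFP+ cells and 26 (38.8%, against 17.9%) in GFP- cells, with a median log2 ratio of -0.64 over the 67 genes and -0.017 over all genes tested. The count of 6 depends on the processing and on single libraries. It was 2 with library totals, 16 with the DESeq2 test or with 8 libraries in the fit and 17 without the filter on low counts. For these settings and for libraries left out, the shares of all genes enriched were not computed. Without P6 GFP+ replicate 2, when the other replicate was assumed to vary like the GFP- libraries, 23 genes were enriched in GFP- cells, and 21 in a fit of the 7 other libraries, which was chosen after seeing the data. Without P6 GFP- replicate 1 or replicate 2 the count was 0. The counts for GFP+ cells were 4 with either P6 GFP+ replicate left out, 3 without P6 GFP- replicate 1 and 0 without P6 GFP- replicate 2.

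**Figure D2:**
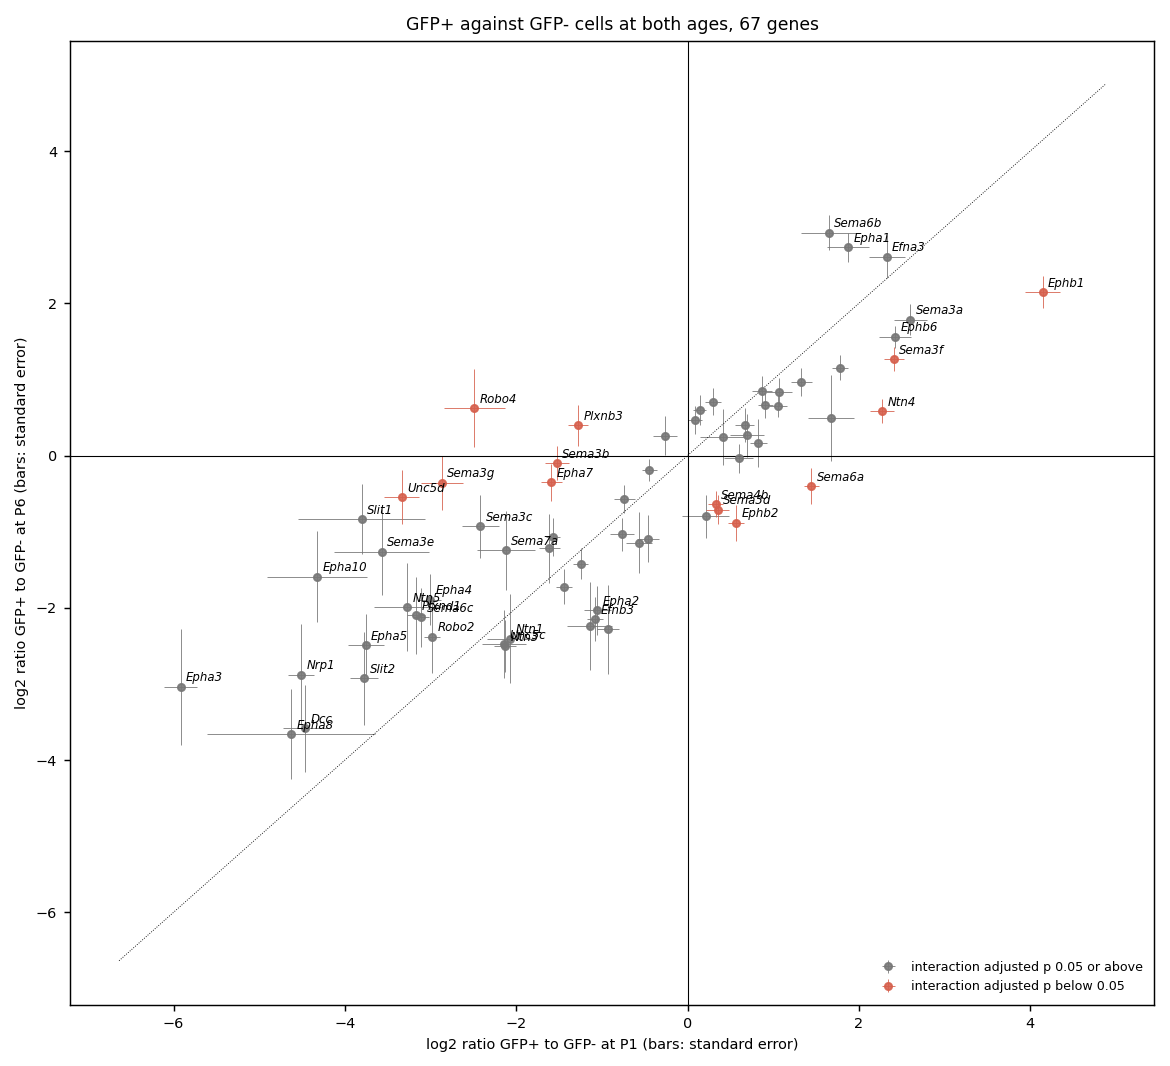
Log2 ratio of GFP+ to GFP- cells at P1 (x axis) and at P6 (y axis) for the 67 axon guidance genes, from edgeR, with standard errors as bars and the line of equality dotted. Red marks the 13 genes whose ratio differed between the ages with adjusted p below 0.05. *Ephb1* lies at 4.14 and 2.14.

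The semaphorins divide between the fractions gene by gene. *Sema3a* (ENSMUSG00000028883, chromosome 5, 13125593 to 13602565), the secreted ligand of neuropilin-1, had 162 and 131 normalized CPM in P1 GFP+ cells and 20.4 and 28.5 in P1 GFP- cells, a log2 ratio of 2.60 (SE 0.19, adjusted p = 0.000134). At P6 it had 74.8 and 72.7 normalized CPM in GFP+ cells against 25.5 and 18.2 in GFP- cells, a log2 ratio of 1.79 (SE 0.20, adjusted p = 0.00316). *Sema3a* was thus above GFP- cells at both ages with no overlap of the libraries, and its level in GFP+ cells was lower at P6 than at P1, with a log2 ratio of -0.998 (adjusted p = 0.0127). *Sema3f* (ENSMUSG00000034684, chromosome 9, 107583833 to 107612806) measured 304 and 363 normalized CPM in P1 GFP+ cells against 61.2 and 65.9 in P1 GFP- cells, with a log2 ratio of 2.41 (SE 0.12, adjusted p = 3.32e-05). In P6 cells its levels were 172 and 149 in GFP+ and 68.9 and 66.7 in GFP- cells, a log2 ratio of 1.27 (SE 0.16, adjusted p = 0.00440). Between the ages *Sema3f* fell by 1.06 on the log2 scale in GFP+ cells (adjusted p = 0.0133) and did not pass the test in GFP- cells, at 0.06 (adjusted p = 0.695).

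The other class 3 semaphorins lay on the GFP- side at P1 or were shared. *Sema3e*, the ligand that binds plexin-D1 without a neuropilin, had 2.83 and 2.20 normalized CPM in P1 GFP+ cells and 15.1 and 46.2 in P1 GFP- cells, a log2 ratio of -3.57 (SE 0.55, adjusted p = 0.00275). The P1 GFP- replicates of *Sema3e* differ widely, and the higher one is the library with more neuronal RNA, whose part in the result was not tested. *Sema3c* had 5.81 and 4.49 (P1 GFP+), 23.7 and 32.5 (P1 GFP-), 5.17 and 12.6 (P6 GFP+) and 18.5 and 16.6 (P6 GFP-) normalized CPM, and *Sema3g* had 1.01 and 1.01 (P1 GFP+), 6.55 and 8.44 (P1 GFP-), 5.17 and 9.51 (P6 GFP+) and 10.8 and 8.6003 (P6 GFP-), and for both the fractions did not overlap at P1. They were also enriched in P1 GFP- cells, with log2 ratios of -2.42 (adjusted p = 0.000302) and -2.87 (adjusted p = 0.000244), and neither passed the test at P6, where the log2 ratios were -0.93 (adjusted p = 0.142) and -0.36 (adjusted p = 0.474). *Sema3b*, with 17.2 and 14.6 (P1 GFP+), 42.1 and 50.7 (P1 GFP-), 39.1 and 57.6 (P6 GFP+) and 52.8 and 53.2 (P6 GFP-) normalized CPM, was higher in P1 GFP- cells by a smaller margin, -1.53 (adjusted p = 0.000343), and rose with age in GFP+ cells, at 1.601 (adjusted p = 0.0128). *Sema3d* had 43.0 and 34.6 normalized CPM in P1 GFP+ cells, 30.8 and 30.9 in P1 GFP- cells and, at P6, 67.01 and 88.0 in GFP+ and 136 and 124 in GFP- cells. It was therefore highest in P6 GFP- cells, where it was past the criteria against P1 with a log2 ratio of 2.04 (SE 0.11, adjusted p = 0.000141).

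Among the 13 semaphorins that stay on the membrane, none was enriched in P1 GFP+ cells, where 6.46% of all genes tested were. In P1 GFP- cells 2 (*Sema6c* and *Sema7a*) were enriched (15.4%, against 11.4%). At adjusted p below 0.05, 7 were higher in GFP+ cells (53.8%, against 25.5%). With *Sema6c* and *Sema7a*, 4 were higher in GFP- cells (30.8%, against 28.1%), a share near that of all genes. *Sema6a*, a transmembrane ligand of plexin-A2 and plexin-A4, had 295 and 281 normalized CPM in P1 GFP+ cells and 104 and 110.0 in P1 GFP- cells, a log2 ratio of 1.45 (SE 0.09, adjusted p = 7.46e-05). By P6 its level was 61.5 and 92.5 in GFP+ cells, with 110.0 and 98.0 in GFP- cells. *Sema6a* fell with age in GFP+ cells, where the log2 ratio of P6 to P1 was -1.91 (SE 0.22, adjusted p = 0.00764), and did not pass the test in GFP- cells, at -0.07 (adjusted p = 0.685). *Sema6b* had 34.8 and 47.8 normalized CPM in P1 GFP+ cells and 89.4 and 63.0 in P6 GFP+ cells, a difference that did not pass the test (0.88, adjusted p = 0.0571). Against 11.2 and 9.19 in P6 GFP- cells it was enriched in GFP+ cells, with a log2 ratio of 2.93 (SE 0.23, adjusted p = 0.00131).

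*Sema6c* had 8.62 and 8.82 normalized CPM in P1 GFP+ cells and 76.1 and 76.0 in P1 GFP- cells, a log2 ratio of -3.11 (SE 0.09, adjusted p = 1.09e-05). *Sema7a*, which is anchored by lipid and binds plexin-C1, had 5.31 and 4.76 normalized CPM against 14.9 and 29.5 in the same groups, a log2 ratio of -2.12 (SE 0.33, adjusted p = 0.00290). *Sema4f* was the only one of the 65 genes tested that was past the criteria between the ages in GFP+ cells, with 19.7 and 16.7 normalized CPM at P1 and 3.91 and 4.38 at P6, a log2 ratio of -2.14 (SE 0.21, adjusted p = 0.00526), and it was also lower at P6 in GFP- cells, at -1.14 (adjusted p = 0.0377). *Sema5b* fell by nearly the same amount in both fractions, with log2 ratios of P6 to P1 of -1.60 (adjusted p = 0.00402) in GFP+ cells and -1.38 (adjusted p = 0.00264) in GFP- cells. *Sema4c* and *Sema4d*, ligands of the B plexins, were higher in GFP+ cells at both ages without reaching the fold criterion, with log2 ratios of 0.91 (adjusted p = 0.000446) and 1.06 (adjusted p = 0.000395) at P1 and of 0.66 (adjusted p = 0.0292) and 0.65 (adjusted p = 0.0194) at P6. *Sema4c* was the most abundant semaphorin of the membrane per length in P6 GFP+ cells, with 180.1 and 195 (P1 GFP+), 104 and 98.0 (P1 GFP-), 184 and 159 (P6 GFP+) and 108 and 113 (P6 GFP-) normalized CPM. *Sema4b* had 51.8 and 52.2 (P1 GFP+), 41.3 and 42.5 (P1 GFP-), 27.6 and 29.9 (P6 GFP+) and 50.4 and 41.3 (P6 GFP-) normalized CPM and was below GFP- cells at P6 (-0.64, adjusted p = 0.0355). *Sema4a* and *Sema4b* were also higher in P1 GFP+ cells, at 0.69 (adjusted p = 0.0264) and 0.33 (adjusted p = 0.0182), and *Sema5a* and *Sema6d* in P1 GFP- cells, at -0.93 (adjusted p = 0.00195) and -0.46 (adjusted p = 0.0267). *Sema4f* and *Sema4g* did not pass the test at P1, where their log2 ratios were 0.21 (95% interval -0.45 to 0.87) and 0.14 (95% interval -0.06 to 0.34).

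On the receiving side of the semaphorins, the neuropilins and plexin-D1 were low in P1 GFP+ cells. *Nrp1* (ENSMUSG00000025810, chromosome 8, 130882973 to 131029362) had 4.71 and 4.18 normalized CPM in P1 GFP+ cells and 112 and 94.2 in P1 GFP- cells, a log2 ratio of -4.51 (SE 0.15, adjusted p = 1.23e-05), and *Nrp2* had 56.6 and 60.7 against 172 and 180.2, a log2 ratio of -1.57 (SE 0.09, adjusted p = 4.85e-05). *Plxnd1*, which marks much of the developing vasculature, had 23.7 and 22.6 against 219.8 and 201, a log2 ratio of -3.17 (SE 0.10, adjusted p = 1.19e-05). All 3 were higher at P6 than at P1 in GFP- cells, with log2 ratios of 1.07 (adjusted p = 0.00348) for *Nrp1*, 0.65 (adjusted p = 0.00758) for *Nrp2* and 1.13 (adjusted p = 0.00184) for *Plxnd1*. In P6 GFP+ cells their replicates lay far apart, at 10.6 and 47.6 normalized CPM for *Nrp1*, 104 and 159 for *Nrp2* and 54.6 and 160.1 for *Plxnd1*, with the higher value in replicate 2, the library with more endothelial and mesenchymal RNA. At P6 the log2 ratios of GFP+ to GFP- cells were -2.88 (adjusted p = 0.0242) for *Nrp1* and -2.10 (adjusted p = 0.0269) for *Plxnd1*, and without that replicate they were -4.35 and -3.08.

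Of the 9 plexins, *Plxnd1* alone was past the criteria at P1 (11.1%, against 11.4% of all genes tested in that direction). At adjusted p below 0.05, 3 were higher in GFP+ cells (33.3%, against 25.5%). In GFP- cells 4 were higher, *Plxnd1* among them (44.4%, against 28.1%). Apart from *Plxnd1* these differences were below the fold criterion. *Plxnb1*, the receptor of *Sema4d*, had 398 and 425 normalized CPM in P1 GFP+ cells and 148 and 183 in P1 GFP- cells, a log2 ratio of 1.33 (SE 0.12, adjusted p = 0.000344), and at P6 the log2 ratio was 0.97 (adjusted p = 0.0140). *Plxna1* and the abundant *Plxnb2* were higher in P1 GFP+ cells as well, at 0.83 (adjusted p = 0.00112) and 0.29 (adjusted p = 0.0399), and *Plxnb2* remained so at P6, at 0.71 (adjusted p = 0.0322). *Plxnb2* was high in every library, with 382 and 408 (P1 GFP+), 329.8 and 321 (P1 GFP-), 559 and 556 (P6 GFP+) and 364 and 332 (P6 GFP-) normalized CPM. *Plxna2*, *Plxnb3* and *Plxnc1* were higher in P1 GFP- cells, at -1.61 (adjusted p = 0.000143), -1.28 (adjusted p = 0.000299) and -0.57 (adjusted p = 0.0230). *Plxna3* and *Plxna4* did not pass the test between the fractions at P1, with log2 ratios of 0.09 (95% interval -0.12 to 0.29) and 0.41 (95% interval -0.23 to 1.05).

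Most EphA receptors were higher in GFP- cells, while the EphB receptors were divided. All 8 EphA genes differed between the fractions at P1 with adjusted p below 0.05, and 7 of them were higher in GFP- cells, where 28.1% of all genes tested were. Of the 5 EphB genes, 3 were higher in GFP+ (60%, against 25.5% of all genes tested) and 2 in GFP- cells (40%, against 28.1%) at P1. The largest enrichment in GFP+ cells among all 67 genes was that of *Ephb1*. *Epha3* (ENSMUSG00000052504, chromosome 16, 63543364 to 63863984) had 1.94 and 1.82 normalized CPM in P1 GFP+ cells and 131 and 100.0 in P1 GFP- cells, a log2 ratio of -5.92 (SE 0.20, adjusted p = 1.29e-05), the largest difference among the 67 genes at P1. *Epha4*, which binds ephrins of both classes, had 35.1 and 32.5 against 302 and 248, a log2 ratio of -3.01 (SE 0.13, adjusted p = 2.64e-05), and *Epha5* had 4.47 and 2.98 against 54.8 and 49.1, a log2 ratio of -3.76 (SE 0.21, adjusted p = 5.24e-05). *Epha5* stayed enriched in GFP- cells at P6, with 4.99 and 11.7 normalized CPM in GFP+ against 46.1 and 51.3 in GFP- cells (-2.49, adjusted p = 0.00881). *Epha4* and *Epha7* were both lower at P6 than at P1 in GFP- cells, with a log2 ratio of -1.31 for each (adjusted p = 0.00166 and 0.000835). For *Epha7*, with 85.0 and 71.0 normalized CPM in P1 GFP+ cells, 225 and 251 in P1 GFP- cells and, at P6, 58.8 and 91.5 in GFP+ and 98.1 and 97.9 in GFP- cells, the difference between the fractions did not pass the test at P6 (-0.35, adjusted p = 0.308).

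*Epha8* and *Epha10* were near the limit of detection in GFP+ cells and entered the set only through GFP- libraries. *Epha8* had 6 and 0 counts in the P1 GFP+ libraries against 38 and 218 in the P1 GFP- libraries. *Epha10*, whose kinase domain is inactive, had 13 and 14 counts against 188 and 768. Both were enriched in P1 GFP- cells, with log2 ratios of -4.63 (adjusted p = 0.00949) and -4.32 (adjusted p = 0.00152), *Epha8* was so at P6 as well (-3.66, adjusted p = 0.00880), and for both the higher P1 GFP- library was the one with more neuronal RNA. *Epha10* also fell in GFP- cells from P1 to P6, by 2.98 on the log2 scale (adjusted p = 0.00590), and *Epha8* did not pass that test (1.32, adjusted p = 0.116). Because *Epha10* needed its P1 GFP- libraries to enter the set, its fall follows in part from the choice of genes. The summed spiral ganglion neuron markers were 211 and 702 normalized CPM in P1 GFP- and 186 and 125 in P6 GFP- cells, and their part in the fall of *Epha10* was not tested. *Epha2* was higher in GFP- cells by a modest margin at P1, with 5.70 and 6.15 normalized CPM in GFP+ against 12.7 and 12.1 in GFP- cells (-1.05, adjusted p = 0.00225), and was enriched there at P6, with 4.27 and 7.94 against 26.6 and 25.1 (-2.03, adjusted p = 0.00834).

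*Epha1* was the exception in its class and lay on the GFP+ side, with 40.1 and 40.8 normalized CPM in P1 GFP+ cells and 8.19 and 14.0 in P1 GFP- cells, and 75.3 and 65.3 against 12.1 and 9.496 in the corresponding P6 cells. Its log2 ratio was 1.87 (SE 0.24, adjusted p = 0.00131) at P1 and 2.73 (SE 0.19, adjusted p = 0.000989) at P6, when it was past the criteria. Exons of *Epha1* overlap those of *Zyx* on the opposite strand, and reads of the overlap cannot be assigned to either gene without strand.

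*Ephb1* (ENSMUSG00000032537, chromosome 9, 101824458 to 102257023), a receptor of the ephrin-B ligands, had 211 and 215 normalized CPM in P1 GFP+ cells and 9.59 and 14.6 in P1 GFP- cells, which is 17.7-fold and a log2 ratio of 4.14 (SE 0.21, adjusted p = 3.48e-05). At P6 the levels were 75.8 and 71.6 in GFP+ cells, against 20.1 and 14.0 in GFP- cells, a log2 ratio of 2.14 (SE 0.21, adjusted p = 0.00223). *Ephb1* was enriched in GFP+ cells at both ages and was lower in GFP+ cells at P6 than at P1, by a log2 ratio of -1.54 (adjusted p = 0.00297). *Ephb6*, an Eph receptor without kinase activity, had 185 and 219.7 normalized CPM in P1 GFP+ cells and 31.5 and 44.9 in P1 GFP- cells, a log2 ratio of 2.42 (SE 0.18, adjusted p = 0.000157), and was still higher in GFP+ cells at P6, at 1.56 (adjusted p = 0.00206). *Ephb2* changed sides, with 68.8 and 70.7 against 45.2 and 49.995 normalized CPM at P1 and 25.7 and 39.3 against 63.2 and 59.3 at P6 in GFP+ and GFP- cells, and log2 ratios of 0.57 (adjusted p = 0.00281) and -0.88 (adjusted p = 0.0367). *Ephb4*, known from veins, was higher in GFP- cells at both ages, at -1.25 (adjusted p = 0.000108) and -1.42 (adjusted p = 0.00639), and *Ephb3* differed by less than the other EphB genes at P1, at -0.45 (adjusted p = 0.00834).

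*Ephb1* and *Epha3* thus had the largest differences in opposite directions at P1, and their promoters are shown for that reason. The windows run from 250 bases before to 50 bases after the start of transcription, 5′ to 3′ on the minus strand, in RefSeq's GRCm38.p6 build, at chr9:102354644-102354943 for *Ephb1* and chr16:63864126-63864425 for *Epha3*. Capitals mark CG dinucleotides.
Promoter of Ephb1: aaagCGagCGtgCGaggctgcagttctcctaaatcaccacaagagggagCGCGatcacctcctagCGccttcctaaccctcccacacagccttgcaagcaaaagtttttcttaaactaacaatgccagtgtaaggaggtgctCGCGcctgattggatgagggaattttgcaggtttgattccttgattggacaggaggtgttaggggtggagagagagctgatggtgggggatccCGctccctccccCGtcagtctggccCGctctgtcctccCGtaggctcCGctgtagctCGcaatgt
Promoter of Epha3: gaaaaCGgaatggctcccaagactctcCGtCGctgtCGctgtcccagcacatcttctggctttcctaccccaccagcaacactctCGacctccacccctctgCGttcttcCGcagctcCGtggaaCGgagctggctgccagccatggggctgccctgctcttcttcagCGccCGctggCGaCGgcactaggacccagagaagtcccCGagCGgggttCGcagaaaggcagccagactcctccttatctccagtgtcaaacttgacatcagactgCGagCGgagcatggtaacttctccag
The *Ephb1* window holds 14 CG dinucleotides and 55.7% G and C, and the *Epha3* window 18 and 60.7%. The median over the 73 windows of 57 of the 67 genes was 20 CG dinucleotides and 64.3% G and C, against 7 and 52.7% over all 32851 windows in the table, so both promoters were richer in CG than the median of all promoters. Neither window holds TGGGAA, the core bound by the Notch partner RBPJ, ACAAAG, a core bound by SOX proteins, or CACGTG, the E-box core, on either strand. These occur in 25.6%, 18.7% and 7.15% of all windows and in 21.9%, 13.7% and 6.85% of those of the axon guidance genes.

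Of the 8 ephrin ligands, *Efna3* alone was past the criteria at P1, where 7 of the 13 Eph receptors were. Those 7 are 5 EphA genes enriched in GFP- cells and 2 EphB genes enriched in GFP+ cells. Of all genes tested, 11.4% and 6.46% were enriched in these directions. *Efna3* had 12.9 and 14.6 normalized CPM in P1 GFP+ cells and 2.34 and 3.16 in P1 GFP- cells, a log2 ratio of 2.33 (SE 0.21, adjusted p = 0.000293). At P6 it had 11.5 and 8.997 normalized CPM against 1.63 and 1.76, a log2 ratio of 2.61 (SE 0.28, adjusted p = 0.00296), and the difference of the ratios between the ages was -0.27 with a 95% interval of -1.04 to 0.49. *Efna1*, with 27.1 and 27.0 (P1 GFP+), 14.1 and 15.9 (P1 GFP-), 56.9 and 43.8 (P6 GFP+) and 31.1 and 25.9 (P6 GFP-) normalized CPM, was higher in GFP+ cells at both ages, at 0.87 (adjusted p = 0.00161) and 0.85 (adjusted p = 0.0227), and higher at P6 than at P1 in both fractions, at 0.89 (adjusted p = 0.0244) in GFP+ cells and 0.90 (adjusted p = 0.00874) in GFP- cells. *Efna4* was higher in P1 GFP+ cells, at 0.67 (adjusted p = 0.00359), and *Efna2* and *Efna5* were higher in P1 GFP- cells, at -0.74 (adjusted p = 0.00362) and -0.76 (adjusted p = 0.00508).

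Among the ephrin-B ligands, *Efnb2* was by far the most abundant per length and its levels in the fractions were close, with 239.9 and 235 normalized CPM in P1 GFP+ cells, 130.5 and 187 in P1 GFP- cells and, at P6, 170.0 and 184 in GFP+ and 209 and 163 in GFP- cells. Its log2 ratio was 0.60 (adjusted p = 0.0263) at P1 and -0.04 (adjusted p = 0.893) at P6. *Efnb1* was higher in GFP- cells at both ages, at -1.44 (adjusted p = 7.31e-05) and -1.72 (adjusted p = 0.00518). *Efnb3* had 25.9 and 28.5 normalized CPM in P1 GFP+ cells and 58.2 and 58.0 in P1 GFP- cells, and 6.01 and 10.2 against 39.9 and 34.5 in the corresponding P6 cells. It was lower at P6 than at P1 in both fractions, at -1.74 (adjusted p = 0.0172) in GFP+ cells and -0.67 (adjusted p = 0.01001) in GFP- cells, and was enriched in P6 GFP- cells with a log2 ratio of -2.15 (SE 0.29, adjusted p = 0.00544).

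**Figure D3:**
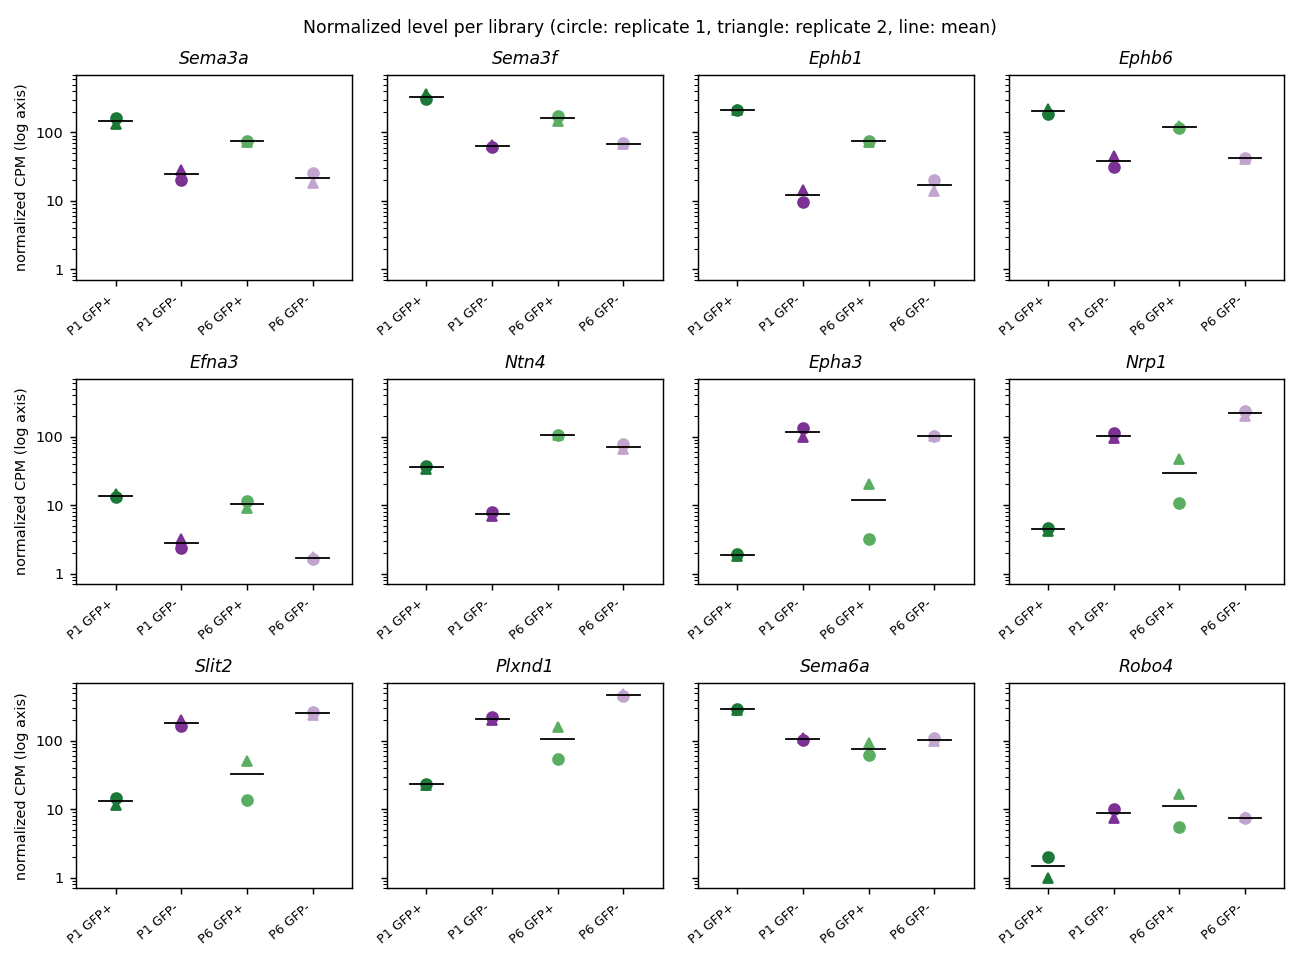
Normalized CPM of 12 axon guidance genes in each library on a shared logarithmic axis, by group, with replicate 1 as a circle, replicate 2 as a triangle and the mean as a line. *Sema3a*, *Sema3f*, *Ephb1*, *Ephb6* and *Efna3* lie higher in GFP+ cells at both ages, and for *Epha3*, *Nrp1*, *Slit2*, *Plxnd1* and *Robo4* the triangle of P6 GFP+ cells lies above the circle.

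Of the Slits and of the Robo receptors, 2 of 3 each were enriched in P1 GFP- cells, where 11.4% of all genes tested were. *Slit1* is among them, and it entered the set only through its level in P1 GFP- cells. *Slit2* (ENSMUSG00000031558, chromosome 5, 48374394 to 48697521) had 14.4 and 11.6 normalized CPM in P1 GFP+ cells and 162 and 200.4 in P1 GFP- cells, a log2 ratio of -3.77 (SE 0.16, adjusted p = 2.44e-05). At P6 it had 13.5 and 51.3 against 267 and 241, a log2 ratio of -2.93 (adjusted p = 0.0175), and -4.21 without P6 GFP+ replicate 2. *Slit2* was thus low in GFP+ cells in every library, and the P6 replicates disagree on how low. *Slit3* was higher in GFP- cells by less, at -1.14 (adjusted p = 0.0129) at P1 and -2.24 (adjusted p = 0.0331) at P6. *Slit1* was scarce, with 6 and 12 counts in P1 GFP+ cells and 82 and 378 in P1 GFP- cells, a log2 ratio of -3.80 (adjusted p = 0.00681), and its higher P1 GFP- library was again that with more neuronal RNA.

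*Robo2* had 20.4 and 19.8 normalized CPM in P1 GFP+ cells and 162 and 160.2 in P1 GFP- cells, a log2 ratio of -2.98 (SE 0.09, adjusted p = 1.09e-05). *Robo1* did not pass the test between the fractions at either age, with 213 and 189 normalized CPM against 272 and 215 at P1, a log2 ratio of -0.26 (95% interval -0.62 to 0.09) at P1 and of 0.26 (95% interval -0.37 to 0.89) at P6. *Robo1* and *Robo2* were lower at P6 than at P1 in GFP- cells, with a log2 ratio of -0.81 for each (adjusted p = 0.0114 and 0.00268). *Robo4*, the member of the family found in endothelial cells, had 1.99 and 1.01 normalized CPM in P1 GFP+ cells and 10.0 and 7.54 in P1 GFP- cells, a log2 ratio of -2.49 (SE 0.36, adjusted p = 0.00199). In P6 GFP+ cells it had 5.59 and 17.0, and in P6 GFP- cells 7.38 and 7.75, so that replicate 2 of the GFP+ cells exceeded both GFP- libraries. The 10 endothelial markers summed to 52.2 and 46.1 normalized CPM in P1 GFP+ cells, then at P6 to 128 and 391 in GFP+ and 440.2 and 414 in GFP- cells, and all 10 were higher in P6 GFP+ replicate 2 than in replicate 1. None of these markers was at 0 in any library, and they differed among themselves. *Cdh5*, which defines endothelial junctions, had 12.4 and 53.6 normalized CPM in P6 GFP+ cells and 31.3 and 25.5 in P6 GFP- cells. *Emcn*, which gave the most to the P6 GFP- sums, had 15.4 and 53.6 against 226 and 223. At P6, 0 of the 10 markers were enriched in either fraction. The part of these markers in the rise of *Robo4* in GFP+ cells (2.89, adjusted p = 0.0367) was not tested.

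Among the netrins, *Ntn4*, which binds laminins in basement membranes, was enriched in P1 GFP+ cells, and the other netrin genes were enriched in P1 GFP- cells. For *Ntn5*, which needed the GFP- libraries to enter the set, this follows in part from the choice of genes. *Ntn4* (ENSMUSG00000020019, chromosome 10, 93103426 to 93209952) had 37.4 and 33.8 normalized CPM in P1 GFP+ cells and 8.05 and 6.91 in P1 GFP- cells, a log2 ratio of 2.27 (SE 0.14, adjusted p = 7.55e-05). By P6 it had risen to 106 and 104 in GFP+ cells and to 77.3 and 65.7 in GFP- cells. The rise was past the criteria in GFP- cells, at 9.39-fold and a log2 ratio of 3.23 (SE 0.15, adjusted p = 9.78e-05), and amounted to 1.55 (adjusted p = 0.00312) in GFP+ cells, and the log2 ratio between the fractions was 0.58 (adjusted p = 0.0343) at P6. *Ntn1*, the classical attractant, had 7.71 and 4.41 normalized CPM in P1 GFP+ cells and 23.8 and 28.4 in P1 GFP- cells, a log2 ratio of -2.07 (adjusted p = 0.00142). *Ntn3* had 8.05 and 9.36 (P1 GFP+), 36.5 and 40.2 (P1 GFP-), 5.17 and 9.78 (P6 GFP+) and 49.0 and 38.8 (P6 GFP-) normalized CPM, and *Ntn5*, the scarcest netrin, had 0.216 and 0.348 (P1 GFP+), 3.07 and 2.26 (P1 GFP-), 0.300 and 1.197 (P6 GFP+) and 3.04 and 3.50 (P6 GFP-), with the P6 GFP+ libraries below both GFP- libraries for each. Their log2 ratios were -2.13 (adjusted p = 6.91e-05) and -3.27 (adjusted p = 0.000942) at P1, and *Ntn3* was also enriched in P6 GFP- cells, at -2.50 (adjusted p = 0.00538). Exons of *Ntn3* overlap *Tbc1d24* and those of *Ntn5* overlap *Sec1*. Exon overlap with another gene was also found for *Ephb1*, *Efna3*, *Plxnb1*, *Plxna1*, *Plxna4*, *Nrp1*, *Ntn1*, *Unc5a*, *Efna4*, *Efna5*, *Epha10* and *Ephb4*, which with *Epha1* makes 15 of the 67 genes whose counts are uncertain to that extent.

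Netrin receptors showed an abundant *Unc5b* in GFP+ cells and the rest mostly in GFP- cells. For *Dcc*, which needed the GFP- libraries to enter the set, this follows in part from the choice of genes. *Unc5b* (ENSMUSG00000020099, chromosome 10, 60225358 to 60294329) had 542 and 523 normalized CPM in P1 GFP+ cells and 158 and 155 in P1 GFP- cells, a log2 ratio of 1.78 (SE 0.09, adjusted p = 4.30e-05) that is below the fold criterion. At P6 it had 233 and 209.6 against 108 and 94.4, a log2 ratio of 1.16 (adjusted p = 0.00638), and it was lower than at P1 in both fractions, at -1.27 (adjusted p = 0.00640) in GFP+ cells and -0.66 (adjusted p = 0.00913) in GFP- cells. *Dcc*, the attractive netrin receptor, had 0.713 and 0.619 normalized CPM in P1 GFP+ cells and 17.3 and 12.9 in P1 GFP- cells, a log2 ratio of -4.47 (SE 0.26, adjusted p = 5.93e-05), and 0.361 and 1.27 against 8.34 and 12.97 at P6, a log2 ratio of -3.58 (SE 0.57, adjusted p = 0.00847). *Unc5c* had 9.59 and 5.65 (P1 GFP+), 36.3 and 32.8 (P1 GFP-), 3.97 and 10.6 (P6 GFP+) and 45.7 and 39.0 (P6 GFP-) normalized CPM, below GFP- cells in every GFP+ library. *Unc5c* and *Unc5d* were enriched in P1 GFP- cells as well, at -2.15 (adjusted p = 0.000912) and -3.34 (adjusted p = 7.19e-05). *Unc5d*, with 2.70 and 2.09 (P1 GFP+), 22.1 and 27.5 (P1 GFP-), 3.31 and 6.12 (P6 GFP+) and 7.12 and 7.09 (P6 GFP-) normalized CPM, fell with age in GFP- cells, a log2 ratio of -1.83 (adjusted p = 0.000998), and the difference between the fractions did not pass the test at P6 (-0.54, adjusted p = 0.289). *Unc5a* was scarce but higher in P1 GFP+ cells, with 141 and 99 counts there against 43 and 77 in P1 GFP- cells, a log2 ratio of 1.67 (adjusted p = 0.00300).

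The comparison of P6 with P1 was made in each fraction on its own. In GFP+ cells *Sema4f* alone was past the criteria, and it fell. The falling genes at adjusted p below 0.05 were *Efnb3*, *Ephb1*, *Ephb2*, *Ephb6*, *Sema3a*, *Sema3f*, *Sema4b*, *Sema4f*, *Sema5b*, *Sema6a*, *Unc5a* and *Unc5b*, and the rising genes were *Efna1*, *Epha1*, *Nrp2*, *Ntn4*, *Plxnb3*, *Plxnd1*, *Robo4*, *Sema3b*, *Sema3d* and *Sema3g*. Of the 6 genes enriched in P1 GFP+ cells, *Sema3a*, *Sema3f*, *Ephb1* and *Ephb6* fell, *Ntn4* rose, and *Efna3* did not pass the test (-0.44, adjusted p = 0.193). Markers of other cell types were also higher in both P6 GFP+ libraries than in the P1 GFP+ libraries. Their summed levels in GFP+ cells were 534 and 448 normalized CPM at P1 and 1943 and 3762 at P6 for mesenchyme and fibrocytes, 52.2 and 46.1 and 128 and 391 for endothelial cells, and 584 and 519.5 and 1387 and 2654 for Schwann and satellite glia, and their part in the rise of these genes was not tested. In this fraction 65 of the 67 genes were tested, since *Epha8* and *Ntn5* did not pass the filter on low counts. The gene past the criteria makes 1.54% falling, against 0.93% of 17213 genes tested. In the rising direction 1.63% of all genes were past the criteria, where 0 of the 65 genes were in edgeR and 4 in DESeq2. At an unadjusted p below 0.05 in edgeR, 15 rose and 16 fell. The shares of all genes were not computed for DESeq2 or for the unadjusted p. At adjusted p below 0.05, 12 genes fell (18.5%, against 8.31% of all genes) and 10 rose (15.4%, against 12.1%). *Unc5a*, among the falling genes, reached the level limit in P1 libraries only, so its fall follows in part from the choice of genes.

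These counts depend on single libraries, and the shares of all genes were not computed with libraries left out. Without P6 GFP+ replicate 2, 5 genes fell and 1 rose past the criteria, the falling genes being *Efnb3*, *Sema4f*, *Sema5a*, *Sema6a* and *Unc5a* and the rising gene *Sema3g*, and the fit of 7 libraries gave the same 6 genes. *Sema5a*, a transmembrane semaphorin, had 107 and 107 normalized CPM in P1 GFP+ cells and 20.2 and 74.7 in P6 GFP+ cells, a log2 ratio of -1.17 (adjusted p = 0.195), and without P6 GFP+ replicate 2 the ratio was -2.41. Its level in GFP- cells was 229.8 and 182 at P1 and 239.7 and 236 at P6, and P6 GFP+ replicate 2 lay between replicate 1 and the P1 GFP+ libraries. Without P6 GFP+ replicate 1, 2 genes fell and 7 rose past the criteria, with P1 GFP+ replicate 1 left out 0 fell and 2 rose, and with P1 GFP+ replicate 2 left out none was past them.

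In GFP- cells *Ntn4* and *Sema3d* rose past the criteria from P1 to P6 and *Epha10* fell. The 2 rising genes are 2.99% of the 67, against 1.43% of 18920 genes tested, and the falling gene 1.49%, against 0.418%. *Epha10* needed its P1 GFP- libraries to enter the set, since at P6 it reached 1 CPM in GFP- replicate 1 only (1.01 CPM). Its fall and that share follow in part from the choice of genes. At adjusted p below 0.05, 11 genes rose (16.4%, against 11.3%), among them both neuropilins, *Plxnd1* and *Ntn1*, and 19 fell (28.4%, against 7.87%), among them *Epha4*, *Epha7*, *Robo1*, *Robo2* and 3 of 5 netrin receptors. The 19 also include *Epha10*, with *Slit1* and *Unc5a*, which reached the level limit in P1 libraries only, so this count too follows in part from the choice of genes. *Efna1*, *Nrp2*, *Ntn4*, *Plxnd1* and *Sema3d* rose in both fractions, *Efnb3*, *Sema4f*, *Sema5b*, *Unc5a* and *Unc5b* fell in both, and 0 genes passed the test in opposite directions. The shares of all genes that did so were not computed, so whether this is particular to these genes is not known. The median log2 ratio of P6 to P1 was -0.06 in GFP+ cells and 0.07 in GFP- cells, against -0.0024 and -0.022 over all genes tested. With 1 library left out, 1 gene rose and 0 fell past the criteria without P6 GFP- replicate 1, 2 rose and 0 fell without P6 GFP- replicate 2, 2 rose and 3 fell without P1 GFP- replicate 1, and 3 rose and 1 fell without P1 GFP- replicate 2.

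**Figure D4:**
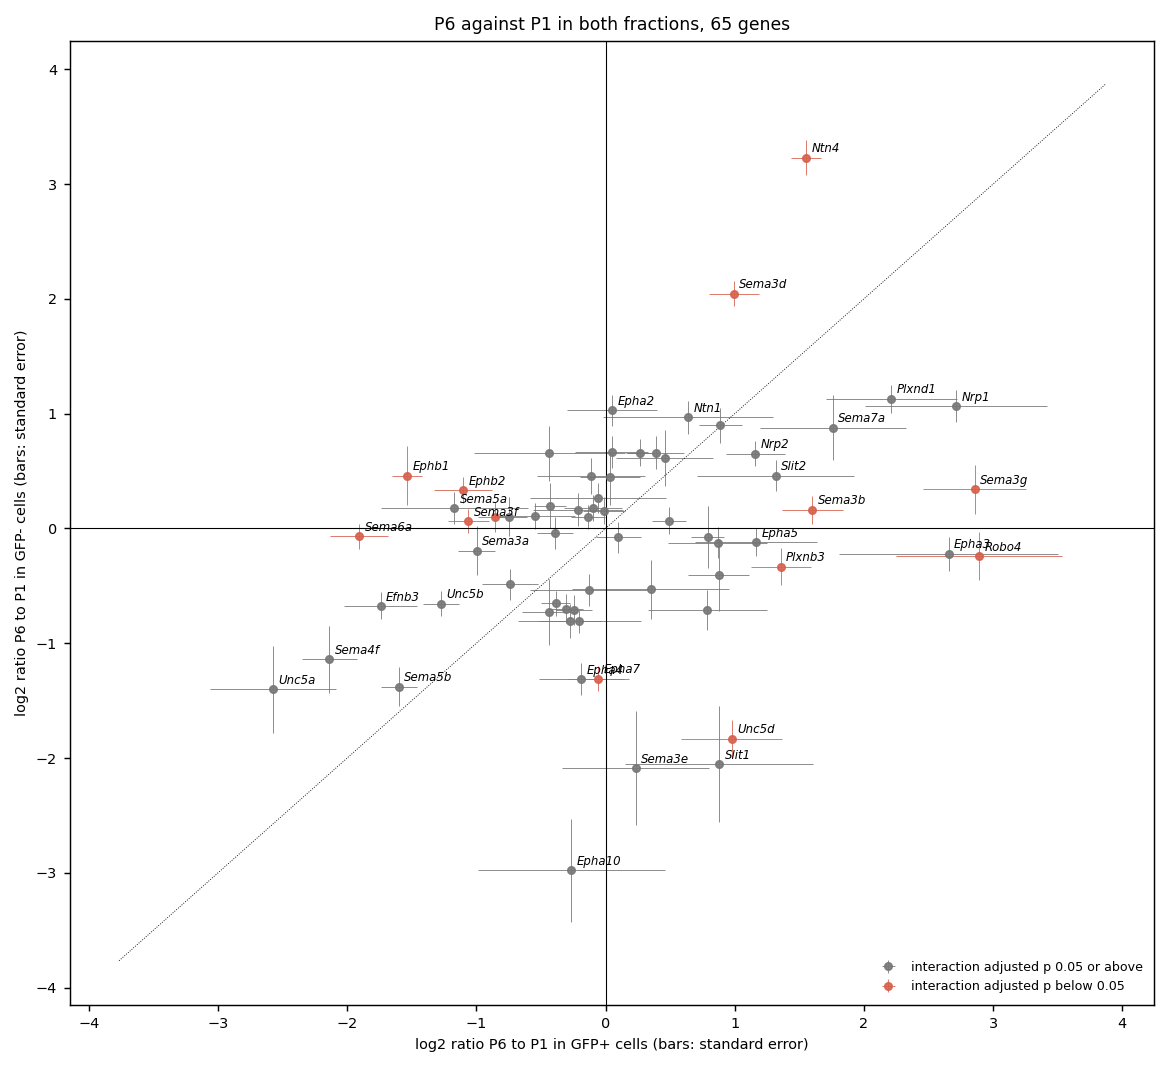
Log2 ratio of P6 to P1 in GFP+ cells (x axis) and in GFP- cells (y axis) for the 65 axon guidance genes tested in both, from edgeR, with standard errors as bars and the line of equality dotted. Red marks genes whose ratio of the fractions differed between the ages with adjusted p below 0.05. *Ntn4* lies at 1.55 and 3.23, *Sema6a* at -1.91 and -0.07, and *Sema5b* close to the line at -1.60 and -1.38.

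A model of all 8 libraries tested whether the ratio of GFP+ to GFP- cells differed between the ages. For 13 of the 67 genes it did, with adjusted p below 0.05. The ratio was higher at P1 for *Ephb1*, *Ephb2*, *Ntn4*, *Sema3d*, *Sema3f*, *Sema4b* and *Sema6a*, and lower at P1 for *Epha7*, *Plxnb3*, *Robo4*, *Sema3b*, *Sema3g* and *Unc5d*. The 7 genes are 10.4% of the 67, against 2.79% of 19233 genes tested, and the 6 genes 8.96%, against 3.6%. *Plxnb3* had 16.8 and 14.9 normalized CPM in P1 GFP+ cells, 37.7 and 40.2 in P1 GFP- cells and, at P6, 32.7 and 48.6 in GFP+ and 27.0 and 36.1 in GFP- cells. Its levels in GFP+ cells were below both GFP- libraries at P1 and overlapped them at P6. The 10 markers of Schwann and satellite glia summed to 584 and 519.5, 867 and 969.6, 1387 and 2654 and 1658 and 1855 in the same order, and their part in the change of *Plxnb3* was not tested. The counts of 7 and 6 became 2 to 4 and 0 to 6 without any 1 of the P1 libraries or the P6 GFP- libraries, and were 16 and 6 without P6 GFP+ replicate 2 and 10 and 19 without P6 GFP+ replicate 1.

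The P6 GFP+ replicates differed from each other, and by more in the genes that GFP- cells express. Over all 67 genes, replicate 2 was higher than replicate 1 in 51, by a median log2 of 0.62 (on the scale of log2(normalized CPM + 0.5)). Over the 22 genes enriched in P1 GFP- cells it was higher in 22, by a median of 1.18. Over the 6 genes enriched in P1 GFP+ cells it was higher in 1, with a median of -0.062. Between the P1 GFP+ replicates the medians of these 22 and 6 genes were -0.13 and 0.096. Levels of genes such as *Epha3*, at 3.25 and 20.4 normalized CPM, *Slit2*, at 13.5 and 51.3, and *Ntn1*, at 3.85 and 15.0, in P6 GFP+ cells are therefore known only as a range. At P6 the log2 ratio of GFP+ to GFP- cells for *Epha3* was -3.04 (adjusted p = 0.0297) with both replicates and -4.94 without replicate 2, for *Ntn1* -2.41 (adjusted p = 0.0276) and -3.74, and for *Robo2* -2.38 (adjusted p = 0.0156) and -3.36.

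**Figure D5:**
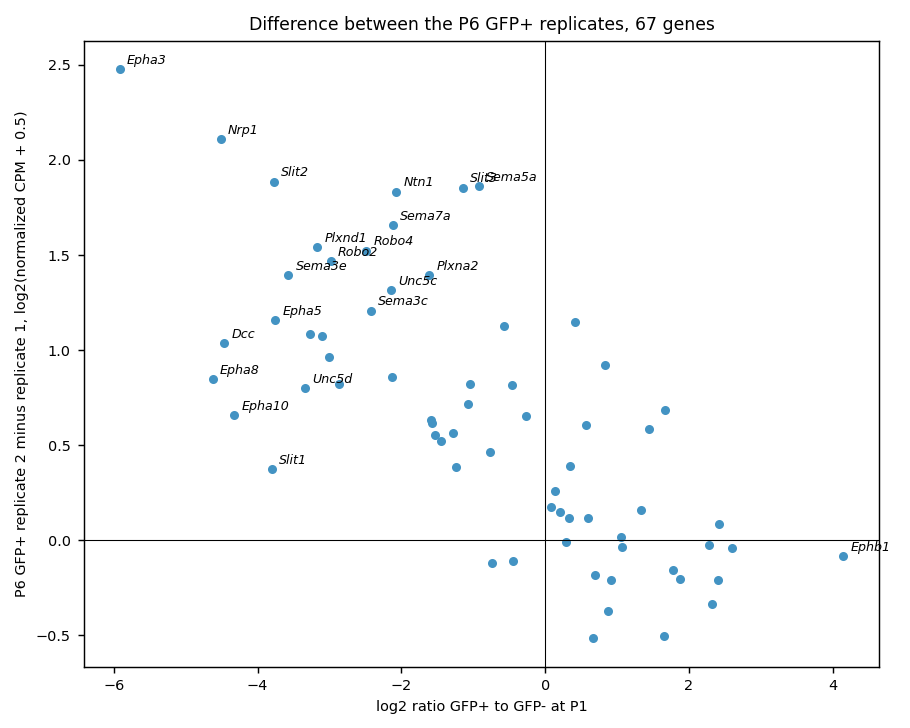
Difference between the P6 GFP+ replicates (y axis, replicate 2 minus replicate 1 in log2(normalized CPM + 0.5)) against the log2 ratio of GFP+ to GFP- cells at P1 (x axis) for the 67 axon guidance genes. Genes lower in P1 GFP+ cells, at the left, lie mostly above 0, with *Epha3* highest, and the 6 genes enriched in P1 GFP+ cells lie near 0.

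Partners and cytoplasmic effectors of these systems were taken from a list of 50 genes, of which 49 were found and tested between the fractions. The list was chosen with earlier results of these data known, so its shares only describe the list. *Rnd1*, *Nrcam*, *Ntng2* and *Enah* already stood on the paper's lists of genes enriched in these GFP+ cells. The paper also reported *Gpc1* as enriched in P1 GFP+ cells, with in situ hybridization, and *Dpysl4* as higher in P1 than in P6 GFP+ cells. At P1, GFP+ cells were enriched for 7 of the 49 genes (14.3%, against 6.46% of all genes tested) and GFP- cells for 8 (16.3%, against 11.4%). At an adjusted p below 0.05, 13 were higher in GFP+ cells (26.5%, against 25.5%) and 23 in GFP- cells (46.9%, against 28.1%). At P6, 3 were enriched in GFP+ cells (6.12%, against 4.88%) and 2 in GFP- cells (4.08%, against 3.1%), shares near those of all genes, and 12 (24.5%, against 15.5%) and 16 (32.7%, against 17.9%) were higher in GFP+ and GFP- cells at an adjusted p below 0.05. *Rnd1*, whose product binds plexins, had 41.3 and 34.9 normalized CPM in P1 GFP+ cells and 0.556 and 0.612 in P1 GFP- cells, a log2 ratio of 6.03 (SE 0.18, adjusted p = 1.11e-05), and was enriched at P6 as well, at 5.09 (adjusted p = 0.000964). The cell adhesion molecule *Nrcam* followed with 4.72 (adjusted p = 2.01e-05) at P1 and 3.45 (adjusted p = 0.000673) at P6. The others enriched in P1 GFP+ cells were the glypican *Gpc1* at 3.19 (adjusted p = 0.000289), the netrin-G gene *Ntng2* at 3.08 (adjusted p = 0.000204), the actin regulator *Enah* at 2.44 (adjusted p = 2.09e-05), the collapsin response mediator *Dpysl4* at 2.35 (adjusted p = 0.000150) and *Srgap3*, which acts below Robo receptors, at 2.12 (adjusted p = 0.000208). Enriched in P1 GFP- cells were *Ntng1* at -3.93 (adjusted p = 8.60e-05), *Mical2* at -3.93 (adjusted p = 0.000117), *L1cam* at -3.66 (adjusted p = 0.000495), *Kalrn* at -2.93 (adjusted p = 1.91e-05), *Flrt3* at -2.91 (adjusted p = 0.000108), *Ablim3* at -2.70 (adjusted p = 0.00155), *Ablim1* at -2.67 (adjusted p = 5.53e-05) and *Dpysl3* at -2.13 (adjusted p = 4.15e-05). The netrin-G genes thus lay on opposite sides, and did so at P6 with log2 ratios of 2.62 (adjusted p = 0.000810) for *Ntng2* and -2.31 (adjusted p = 0.00571) for *Ntng1*. Between the ages *Dpysl4* fell past the criteria in GFP+ cells (-2.55, adjusted p = 0.00241), *Kalrn* rose in GFP+ cells (2.51, adjusted p = 0.00487) and *Rnd1* rose in GFP- cells (2.97, adjusted p = 0.00151).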

How the data were processed

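Gene counts of 8 libraries, 4 groups of 2 replicates named by their titles in the labels, were analyzed. The files hold whole-number counts for Ensembl genes, made by the authors by mapping paired reads on mm9 (NCBIM37) with TopHat (version 1.4.0 in the submitters' processing notes) and assigning them to genes with HTSeq. The counting mode and the strand setting are not given in the sources used here, and exons of 15 of the 67 genes overlap another gene. Lines of the files that name no gene stood for 23.8% to 35.3% of the listed reads and were dropped. Names, positions and exon lengths were looked up in the annotation of NCBIM37, where 34391 of 36536 genes were found.

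Each comparison was fitted over all genes of its 4 libraries in R 4.3.3 with edgeR 4.0.16 (filterByExpr with a minimum count of 10 and a minimum total of 15, TMM scaling, quasi-likelihood test), and p-values were adjusted over all genes tested by the Benjamini-Hochberg method. Genes past the study's criteria had a fold above 4, with raw and adjusted p below 0.01. The change of the ratio with age was an interaction term over 8 libraries. The SE is the log2 ratio divided by the square root of F, and 95% intervals use the quasi-likelihood degrees of freedom. The scripts were tested on simulated data. Levels in every library are given for genes past the criteria in a comparison or with an interaction adjusted p below 0.05, at the ages the text describes, and for abundant genes of the families, and other genes by their ratios. The genes and lists were chosen with earlier results of these data known. Alternatives were DESeq2 1.42.0 size factors or its test, library totals, no filter, 8 libraries in the fit, a replicate block, adjusted p below 0.05 alone, glmTreat and leaving out each replicate. Figures were drawn with matplotlib 3.10.9.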

Additional observations from a re-analysis of the deposited data

Results flagged for a closer look

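For 13 axon guidance genes the P1 ratio between the fractions was not that of P6 (edgeR, adjusted p below 0.05 for the difference of the ratios, 2 libraries per group). The values are the log2 ratio at P1 minus that at P6. Among the semaphorins they were 1.86 (adjusted p = 0.00745) for *Sema6a*, 1.15 (adjusted p = 0.0153) for *Sema3f*, 1.08 (adjusted p = 0.0364) for *Sema3d* and 0.98 (adjusted p = 0.0229) for *Sema4b*, and the negative values were -2.50 (adjusted p = 0.0190) for *Sema3g* and -1.41 (adjusted p = 0.0257) for *Sema3b*. Among the Eph receptors the difference was 2.02 (adjusted p = 0.0108) for *Ephb1*, 1.46 (adjusted p = 0.0190) for *Ephb2* and -1.23 (adjusted p = 0.0469) for *Epha7*. For the remaining genes it was 1.70 (adjusted p = 0.00328) for *Ntn4*, -1.67 (adjusted p = 0.0190) for *Plxnb3*, -3.10 (adjusted p = 0.0426) for *Robo4* and -2.79 (adjusted p = 0.00871) for *Unc5d*. *Sema6a*, *Ephb1* and *Sema3f* fell with age in GFP+ cells, and their log2 ratios of P6 to P1 in GFP- cells, -0.07, 0.46 and 0.06, did not pass the test. *Sema4b* passed the test at both ages in opposite directions, at 0.33 (adjusted p = 0.0182) and -0.64 (adjusted p = 0.0355).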

How the results depend on the processing

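The counts at P1, 6 genes enriched in GFP+ and 22 in GFP- cells, stayed within 1.5 times under the other scalings and tests and without any 1 replicate, with ranges of 6 to 8 and 16 to 22 over the latter, and moved only with the criterion, to 23 and 38 at an adjusted p below 0.05 alone and to 1 and 10 with glmTreat against a fold of 4. At P6, 4 genes in GFP+ and 6 in GFP- cells became 15 and 26 at an adjusted p below 0.05 and 0 and 0 with glmTreat. The 6 became 2 with library totals, 16 with the DESeq2 test, 17 without the filter, 16 with 8 libraries and 21 with 7, and 0 to 23 without 1 replicate, over which the 4 ranged from 0 to 4. In GFP+ cells the 0 rising and 1 falling genes became 4 and 2 with DESeq2, 5 and 2 without the filter, 3 and 2 with 8 libraries, 1 and 5 with 7, 10 and 12 at an adjusted p below 0.05, 0 and 0 with glmTreat, and 0 to 7 and 0 to 5 without 1 replicate. In GFP- cells the 2 rising and 1 falling genes became 1 and 2 with library totals, 2 and 2 with DESeq2, 2 and 3 without the filter, 2 and 0 with 8 libraries, 11 and 19 at an adjusted p below 0.05, 1 and 0 with glmTreat, and 1 to 3 and 0 to 3 without 1 replicate. The 7 and 6 genes whose ratio changed with age became 10 and 10 with DESeq2, 14 and 20 without the filter, and 2 to 16 and 0 to 19 without 1 replicate. The cause of these changes was not tested. Except at an adjusted p below 0.05 alone, the shares of all genes were not computed under the alternatives, so whether all genes moved alike is not known. Where only 1 library of a group was left, it was assumed to vary like the others.

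The correlation of same-numbered deviations was 0.0214 at P1, 0.0855 at P6, -0.0835 in GFP+ and -0.277 in GFP- cells. These values cannot show whether GFP+ and GFP- libraries of the same number came from the same sort, which no label states. Libraries of different ages came from different animals and cannot be such pairs. With a replicate block, 15 genes were enriched in P6 GFP- cells instead of 6 and 1 gene rose in GFP+ cells instead of 0, and the block left the counts at P1 at 6 and 21. Crossing the numbers in GFP- cells gave 2 rising and 1 falling genes. Of 1956 values of single genes with an adjusted p below 0.05 recomputed under an alternative, 1609 kept that side of the threshold, 347 lost it and 0 changed sign. Scaling by library totals moved the median over all genes by -0.105 at P1, -0.091 in GFP+ and -0.191 in GFP- cells. *Slit1*, *Epha8*, *Epha10*, *Ntn5* and *Dcc* have few counts in GFP+ cells, so their ratios are imprecise.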

Other observations

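The P1 GFP- replicates differed by a median log2 of 0.076 (replicate 2 over replicate 1, pseudocount 0.5) over the 67 genes, and 4 genes were more than 2-fold higher in replicate 2. These were *Sema3e*, with 15.1 and 46.2 normalized CPM, *Epha8*, with 0.918 and 3.18, *Slit1*, with 1.98 and 5.51, and *Epha10*, with 4.54 and 11.2, and they were chosen after their values were seen. Of the 4 genes, *Sema3e*, *Slit1* and *Epha10* were lower in P6 than in P1 GFP- cells, with log2 ratios of -2.09 (adjusted p = 0.0301), -2.05 (adjusted p = 0.0329) and -2.98 (adjusted p = 0.00590) by edgeR, whereas *Epha8* did not pass the test, at 1.32 (adjusted p = 0.116). *Slit1* and *Epha10* needed their P1 GFP- libraries to enter the set, so their falls follow in part from the choice of genes.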
